A study of Homo sapiens with 20 samples.

Results

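The m6A reader genes are described here in human pancreatic cells with and without the m6A demethylase ALKBH5. They are the 8 genes YTHDF1, YTHDF2, YTHDF3, YTHDC1, YTHDC2, IGF2BP1, IGF2BP2 and IGF2BP3, chosen by name and found by Ensembl identifier among the 60623 identifiers of the pancreatic progenitor (PP) tables and the 60624 of the islet-like organoid (hILO) tables. All 8 had a mean of at least 1 CPM or TPM and entered every comparison. All libraries came from the human embryonic stem cell line that the labels call MEL1 and the study MEL1 INS GFP/W, in which GFP reports on the insulin gene. WT cells kept ALKBH5, and A5-KO cells carried indels in its first exon, made with CRISPR-Cpf1 in stem cells from which edited colonies were picked, so that genotype and line cannot be told apart. PPs had been differentiated with media given up to day 14 and treated with 1 µg per ml of actinomycin D (Act D), a transcription inhibitor, for 0, 1, 2 or 3 h. hILOs received no Act D and were differentiated further, with media given up to day 22 in the labels. Each genotype, stage and time had 2 libraries, 16 of PPs and 4 of hILOs. The study calls its replicates biological and has the wells of a replicate come from a common batch of cells, but the labels do not tie a library to a batch. The p-values measure the spread between these libraries.

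N6-methyladenosine (m6A) is a mark on adenosines of mRNA that a writer complex adds, that ALKBH5 and FTO remove, and that reader proteins bind. YTHDF1, YTHDF2 and YTHDF3 are cytoplasmic YTH domain proteins, and YTHDF2 is best known for recruiting the CCR4-NOT deadenylase to marked mRNAs and so speeding their decay. YTHDC1 is the nuclear YTH protein, linked to splicing and export, and YTHDC2 is a cytoplasmic RNA helicase studied mostly in meiosis. IGF2BP1, IGF2BP2 and IGF2BP3 are KH domain proteins that bind and stabilise mRNAs, and they are high in fetal tissues and many tumours.

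ALKBH5 itself was lower in A5-KO than in WT libraries at both stages. WT PPs held 149 and 172 CPM before Act D, and A5-KO PPs 19.1 and 18.8 CPM. The WT hILO libraries read 78.8 and 81.9 TPM, and the A5-KO libraries 4.16 and 3.42 TPM. The log2 change was -3.01 (SE 0.10; limma adjusted p = 1.5e-06) in PPs and -4.09 (SE 0.11; limma adjusted p = 0.0021) in hILOs. PP libraries held between 30516384 and 35206514 reads. The summed progenitor markers at 0 h (PDX1, NKX6-1, SOX9 and 5 others) lay between 1019 and 1292 CPM in WT and between 966 and 1071 CPM in A5-KO PPs. The 8 endocrine markers summed to between 3.16 and 4.64 CPM in PPs at 0 h, and in hILOs to between 34651 and 36966 TPM in WT and between 26629 and 27843 TPM in A5-KO. Most of the hILO sum was CHGA, at 19634 (WT) and 17613 TPM (A5-KO) on average, and INS, at 13005 and 7605 TPM. In hILOs 4 of the 8 were called lower and 1 higher, against 6.79% of all genes called either way. NEUROD1 went the other way from the sum, at 209 and 351 TPM.

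Sequences of the YTHDF1 and YTHDF2 transcripts show how the members that fell most under Act D are built. The windows come from the 3′ UTR of the Ensembl canonical transcript (GENCODE v44, GRCh38), sense strand, 5′ to 3′, with the motif in capitals. Motifs were searched as GGACT, the core of the commonest m6A consensus, and ATTTA, the core of AU-rich elements. The 3′ UTR of YTHDF2 has 823 bases, 0 ATTTA and 2 GGACT, at chr1:28769021-28769043 and chr1:28769101-28769123 on the plus strand:
YTHDF2, GGACT number 1: agagaattaGGACTtttttctta
YTHDF2, GGACT number 2: aaagacataGGACTtaactggaa
The 3′ UTR of YTHDF1 has 1279 bases, 0 GGACT and 5 ATTTA, of which number 1 lies at chr20:63196542-63196564 and number 4 at chr20:63195528-63195550, both on the minus strand:
YTHDF1, ATTTA number 1: tggatctgcATTTAtttgtactt
YTHDF1, ATTTA number 4: tagacttgtATTTAgagcgtgtc
Of 19571 canonical transcripts with a 3′ UTR, 67.4% held ATTTA and 57.4% held GGACT. No measurement of m6A or of protein binding at these sites was used here.

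The 3 YTHDF transcripts fell within the first hour of Act D in both genotypes, and at 3 h their A5-KO libraries lay below the WT libraries. In the plot of CPM by time, YTHDC2 and the IGF2BP genes show no such fall, and YTHDC1 scatters widely between replicates.

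**Figure D1:**
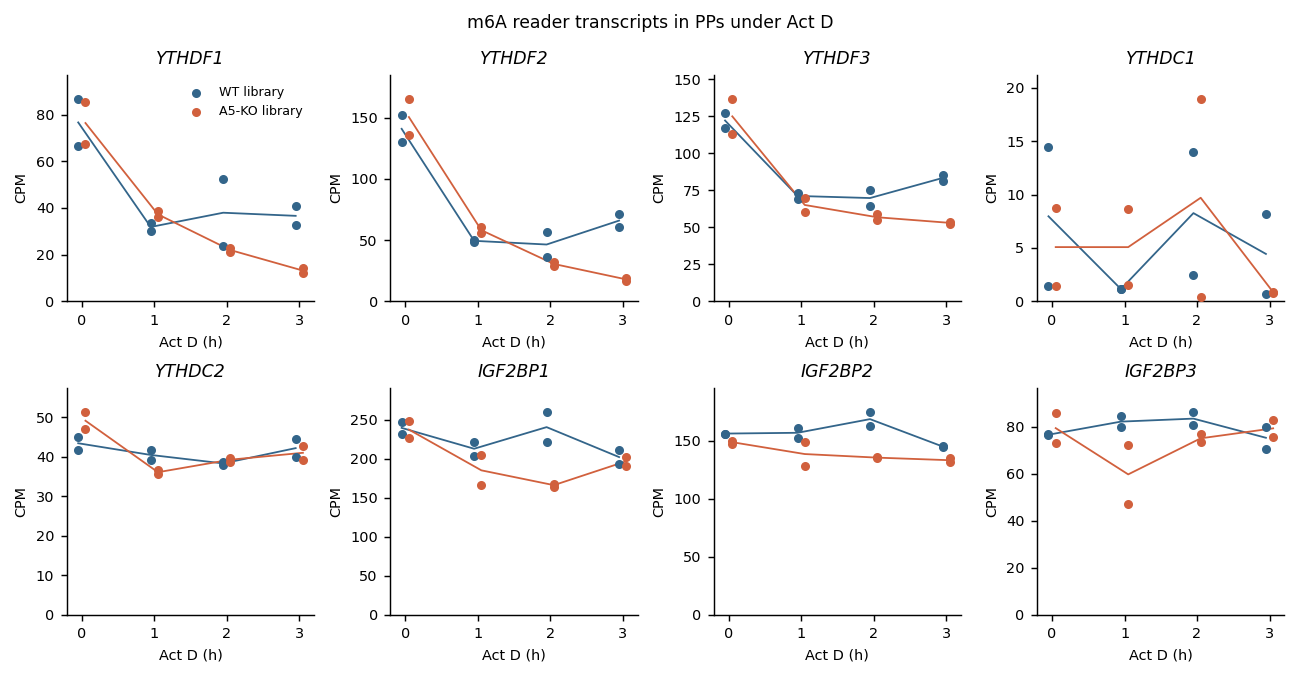
CPM of each reader gene (y axis, from 0) against hours of Act D (x axis) in PPs; points are single libraries, 2 per genotype and time, and lines join their means. YTHDF1, YTHDF2 and YTHDF3 drop by 1 h in both genotypes, and at 3 h their A5-KO libraries lie below the WT libraries.

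YTHDF2 (chr1:28736621-28769775, plus strand, 5 exons) was measured at 152 and 130 CPM in WT PPs at 0 h. After 1 h it was at 48.4 and 50.3 CPM, after 2 h at 35.9 and 56.8 CPM, and after 3 h at 60.9 and 70.9 CPM. The WT level thus lay lowest at 1 to 2 h and did not go down further to 3 h. In A5-KO PPs YTHDF2 was at 165 and 136 CPM at 0 h, 55.4 and 60.65 CPM at 1 h, 28.9 and 32.05 CPM at 2 h and 19.03 and 16.6 CPM at 3 h. Each A5-KO time lay below the one before it in both libraries, and at 3 h the genotypes were 3.69-fold apart with no overlap. Relative to the 0 h mean, 46.8% was left at 3 h in WT and 11.9% in A5-KO.

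The change of YTHDF2 from 0 to 1 h was -1.49 on the log2 scale (SE 0.16; limma adjusted p = 1.8e-05) in WT and -1.35 (SE 0.16; limma adjusted p = 4.1e-05) in A5-KO. From 0 to 3 h it was -1.08 (SE 0.16; limma adjusted p = 9.2e-04) in WT and -3.004 (SE 0.16; limma adjusted p = 1.4e-08) in A5-KO. CPM is a share of the RNA that remains, and the median of all 13620 genes tested moved by -0.12 and -0.14 at 1 h and by -0.09 and -0.22 at 3 h in WT and A5-KO. Relative to the median gene, YTHDF2 changed by -1.37 and -1.21 at 1 h and by -0.999 and -2.78 at 3 h. From 0 to 3 h in A5-KO PPs, 99.2% of genes tested had a higher change than YTHDF2.

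YTHDF1 (chr20:63195429-63216139, minus strand, 5 exons) followed a similar course at a lower level. In WT PPs it was at 86.8 and 66.6 CPM at 0 h, 29.99 and 33.7 CPM at 1 h, 23.5 and 52.5 CPM at 2 h and 32.6 and 40.7 CPM at 3 h. In A5-KO PPs it was at 85.4 and 67.4 CPM at 0 h, 38.5 and 36.0 CPM at 1 h, 22.8 and 21.1 CPM at 2 h and 12.2 and 14.1 CPM at 3 h. The 2 WT libraries at 2 h stood apart by 2.23-fold, the widest gap of YTHDF1 at any time, and the A5-KO libraries at 3 h were 2.79-fold below WT. Its change from 0 to 3 h was -1.04 (SE 0.25; limma adjusted p = 0.010) in WT and -2.45 (SE 0.25; limma adjusted p = 6.6e-07) in A5-KO. The WT call was lost without the first WT library of 0 h (-0.85, adjusted p = 0.16) or of 3 h (-0.89, adjusted p = 0.098). At 1 h the changes were -1.23 (SE 0.25; limma adjusted p = 0.0019) and -1.01 (SE 0.25; limma adjusted p = 0.0055), and the second was lost without the first A5-KO library of 0 h (-0.84, adjusted p = 0.085).

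YTHDF3 (chromosome 8, plus strand, 5 exons) fell less far. It was at 127 and 117 CPM in WT PPs at 0 h, 73.1 and 69.3 CPM at 1 h, 64.1 and 75.5 CPM at 2 h and 81.6 and 85.2 CPM at 3 h. In A5-KO PPs it was at 137 and 113 CPM at 0 h, 70.0 and 60.2 CPM at 1 h, 54.8 and 58.8 CPM at 2 h and 53.9 and 52.1 CPM at 3 h. At 3 h 68.2% of the 0 h mean was left in WT and 42.4% in A5-KO. Its change was -0.77 (SE 0.11; limma adjusted p = 1.0e-04) at 1 h in WT, -0.93 (SE 0.11; limma adjusted p = 2.9e-05) at 1 h in A5-KO and -1.22 (SE 0.11; limma adjusted p = 1.9e-07) at 3 h in A5-KO. At 3 h in WT the change of -0.55 (SE 0.11; limma adjusted p = 0.0036) was not over 1.5-fold, and without the second WT library of 0 h it was -0.60 and called (adjusted p = 0.013).

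A gene was called changed at an adjusted p below 0.05 and over 1.5-fold. At 1 h, 3 of 8 readers fell in WT PPs, where 15.3% of all genes tested fell, and the same 3 fell in A5-KO PPs, where 16.7% did. At 3 h, 2 of 8 fell in WT, against 10.1% of all genes, and 3 of 8 fell in A5-KO, against 30.9%. No reader was called higher. The count at 3 h in A5-KO thus lay close to the share of all genes, while the size of the YTHDF2 change lay near its end. Quantile normalization turned the split of all calls at 3 h in A5-KO from 293 higher and 4210 lower to 2624 higher and 2359 lower, and at 1 h from 144 and 2281 to 970 and 1327 in A5-KO and from 28 and 2081 to 403 and 1217 in WT, and at 3 h in WT from 46 and 1375 to 182 and 882. Median-of-ratios scaling gave 1531 higher and 3091 lower at 3 h and 464 and 1645 at 1 h in A5-KO. The number of readers called in these 4 comparisons stayed as given under both.

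**Figure D2:**
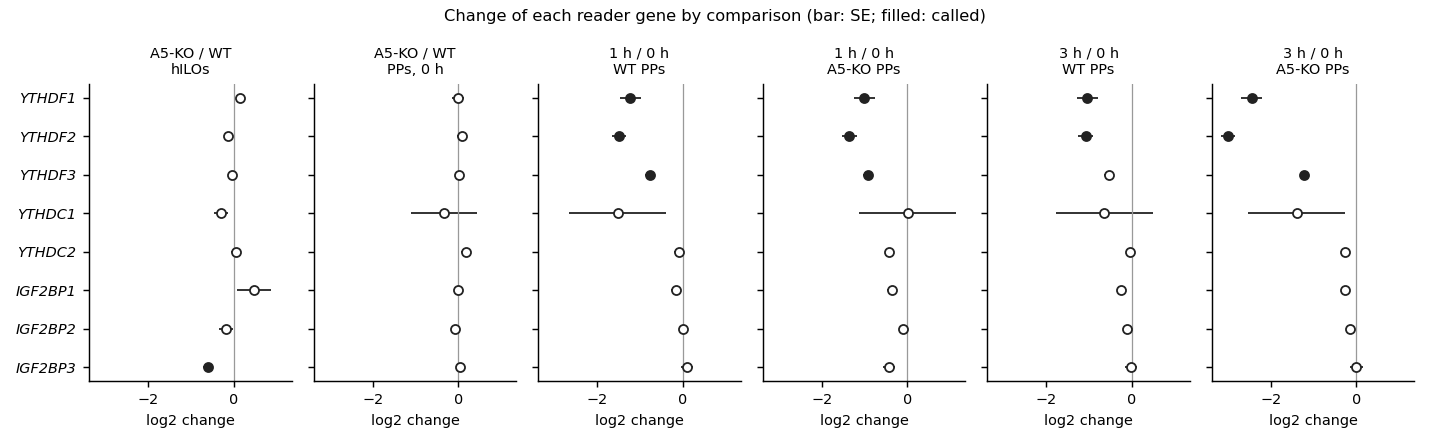
Log2 change of each reader gene (x axis) in 6 comparisons, one panel each; points are limma estimates, bars are standard errors, and filled points passed an adjusted p below 0.05 and over 1.5-fold. The YTHDF genes hold every filled point of the Act D panels, and IGF2BP3 the only one between genotypes.

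Whether the decline under Act D differed between genotypes was asked with the difference of the slopes of log2(CPM + 0.1) over 0 to 3 h, called at an adjusted p below 0.05. YTHDF2 gave a slope difference of -0.67 per h (SE 0.18; limma adjusted p = 0.054) and YTHDF1 one of -0.53 per h (SE 0.16; limma adjusted p = 0.072). YTHDF3 gave -0.22 per h (SE 0.12; limma adjusted p = 0.28). By limma 0 of 8 readers were called, against 2.67% of all genes, and 2 of 8 had an unadjusted p below 0.05. The calls over all genes, 9 higher and 355 lower, became 0 when any 1 of 10 of the 16 libraries was left out, with 214 to 354 higher and 1870 to 2999 lower at an unadjusted p below 0.05, and 62 and 1442 without the first WT library of 0 h. With edgeR on the recovered reads YTHDF2 was called (-0.60 per h, adjusted p = 0.048), and with DESeq2 both YTHDF2 (-0.60 per h, adjusted p = 0.027) and YTHDF1 (-0.45 per h, adjusted p = 0.021). Over all 13620 genes edgeR called 8 higher and 246 lower, and DESeq2 143 higher and 727 lower.

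The courses above are not straight lines, and the slope depended on the times in the fit. With 0 and 3 h only, all 3 YTHDF genes differed between the genotypes, YTHDF2 by -0.66 per h (limma adjusted p = 1.9e-04), YTHDF1 by -0.49 per h (limma adjusted p = 0.0016) and YTHDF3 by -0.23 per h (limma adjusted p = 0.0053). Of all 13740 genes tested in that fit, 290 were called higher and 2739 lower, far more than with all times. With 0 and 1 h only, none of the 3 was called, and the estimates of YTHDF2 (0.14 per h) and YTHDF1 (0.23 per h) were positive. Without the first WT library of 0 h or of 2 h, YTHDF1 (-0.67 and -0.57 per h) and YTHDF2 (-0.82 and -0.71 per h) were both called. For YTHDF1 and YTHDF2 the separation of the genotypes therefore lay in the values after 1 h.

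**Figure D3:**
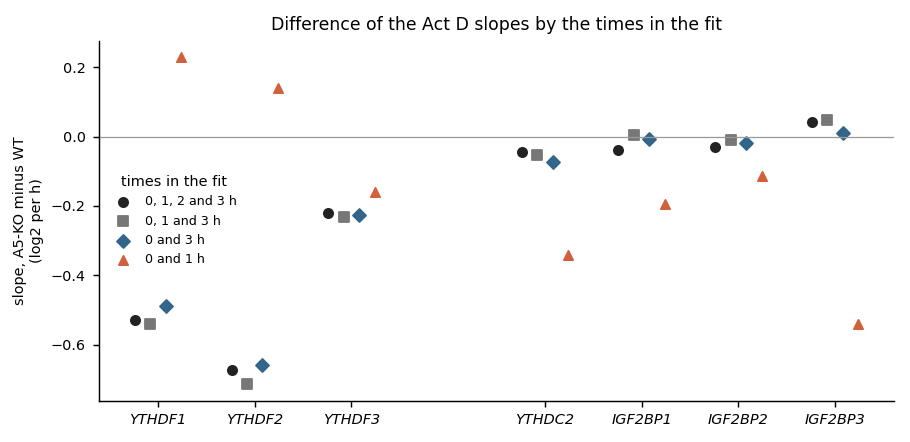
Difference of the Act D slopes, A5-KO minus WT, in log2 units per hour (y axis), for each reader gene except YTHDC1 (x axis); the symbols mark which times entered the fit. For YTHDF1 and YTHDF2 the fit on 0 and 1 h lies above 0 and the other 3 lie below it.

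Half-lives from a line through the origin put the same values on a scale of hours. Each library was set against the 0 h library of its genotype and replicate number, a pairing that the labels do not tie to a batch. YTHDF2 gave 1.43 and 2.199 h for the WT replicates against 0.878 and 0.974 h for A5-KO. YTHDF1 gave 1.47 and 3.69 h against 1.05 and 1.27 h, and YTHDF3 gave 2.99 and 4.09 h against 1.83 and 2.28 h. For these 3 genes every A5-KO value from all times lay below both WT values. From 0 and 1 h only this held for YTHDF3 (1.26 and 1.32 h against 1.034 and 1.1003 h) but not for YTHDF2 (0.607 and 0.732 h against 0.635 and 0.863 h) or YTHDF1 (0.653 and 1.02 h against 0.872 and 1.105 h). The WT mean of YTHDF2 went from 1.74 h to 2.74 h with 0 and 3 h only and to 0.664 h with 0 and 1 h only. These values rest on shares of the remaining RNA, since the spike-in step was not applied to the table used.

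Markers of the progenitors themselves and of other cells were summed in the same libraries. The summed progenitor markers went from between 1019 and 1292 CPM at 0 h to between 430 and 438 CPM at 3 h in WT, and from between 966 and 1071 CPM to between 111 and 127 CPM in A5-KO. The WT libraries of 2 h, which differed for YTHDF1, also differed in that sum, at 238 and 548 CPM. Hepatocyte markers (ALB, AFP, TTR and 5 others) already stood apart at 0 h, with sums between 1090 and 1139 CPM in WT and between 1896 and 1922 CPM in A5-KO. At 3 h they summed to between 1485 and 1622 CPM in WT and between 2176 and 2328 CPM in A5-KO. Most of the difference at 0 h was AFP, at 557 and 1319 CPM on average. SERPINA1 went the other way at 0 h, at 341 and 234 CPM. The part of these markers in the changes of the readers was not tested, and in bulk libraries fewer cells of a type and less RNA per cell cannot be told apart.

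YTHDC2 (chr5:113513694-113595285, plus strand, 30 exons) was steady by comparison. Over the 8 WT libraries it ranged from 37.8 to 44.95 CPM, and over the 8 A5-KO libraries from 35.5 to 51.2 CPM. In A5-KO PPs it was at 51.2 and 46.9 CPM at 0 h and 36.5 and 35.5 CPM at 1 h. That change of -0.43 (SE 0.10; limma adjusted p = 0.0027) passed the p threshold but not 1.5-fold. At 3 h the log2 change was -0.26 (limma adjusted p = 0.034). Under median-of-ratios scaling that log2 change reversed sign to 0.021 and no longer passed. In WT, 93.2% of its 0 h mean was left at 1 h and 97.2% at 3 h, and neither time passed the test.

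The IGF2BP transcripts kept most of their share for 3 h. IGF2BP1 (chr17:48997385-49056145, plus strand, 15 exons) ranged from 194 to 260 CPM in WT and from 164 to 248 CPM in A5-KO, and IGF2BP2 (chr3:185643130-185825042, minus strand, 16 exons) from 145 to 175 CPM and from 128 to 150 CPM. Relative to 0 h, 84.4% of IGF2BP1 and 92.9% of IGF2BP2 was left at 3 h in WT, and 82.9% and 89.5% in A5-KO. IGF2BP3 (chr7:23310209-23470491, minus strand, 15 exons) ranged from 70.5 to 86.2 CPM in WT. In A5-KO it was at 72.4 and 47.0 CPM at 1 h, the lower of these being its lowest PP library, and between 73.1 and 85.7 CPM at all other times. The change at 1 h in A5-KO was -0.43 for IGF2BP3 (SE 0.14; limma adjusted p = 0.029) and -0.36 for IGF2BP1 (SE 0.10; limma adjusted p = 0.011), neither over 1.5-fold. At 3 h in A5-KO the log2 change of IGF2BP1 was -0.27 (limma adjusted p = 0.034). Under median-of-ratios scaling that log2 change reversed sign to 0.012 and no longer passed. Without the first A5-KO library of 1 h, IGF2BP3 was called (-0.74, adjusted p = 7.3e-04). IGF2BP2 had an adjusted p above 0.05 in all 4 Act D comparisons, the lowest being 0.099.

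YTHDC1 (chr4:68310387-68350090, minus strand, 17 exons) differed widely between the 2 libraries of most PP conditions. In WT PPs it was at 14.5 and 1.46 CPM at 0 h, 1.17 and 1.11 CPM at 1 h, 14.0 and 2.49 CPM at 2 h and 0.686 and 8.18 CPM at 3 h. In A5-KO PPs it was at 1.45 and 8.70 CPM at 0 h, 1.496 and 8.65 CPM at 1 h, 18.97 and 0.426 CPM at 2 h and 0.909 and 0.790 CPM at 3 h. The 16 libraries thus fell into 10 with at most 2.49 CPM and 6 with at least 8.18 CPM, and the 6 included 3 of each genotype. In reads, the 2 A5-KO libraries of 2 h held 650 and 13. The replicates differed over 4-fold in 6 of 8 conditions, and of 13620 genes tested YTHDC1 alone reached 6. Only 12 genes had such a gap in at least 4 conditions and 134 in any, and the other 7 readers had it in none.

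**Figure D4:**
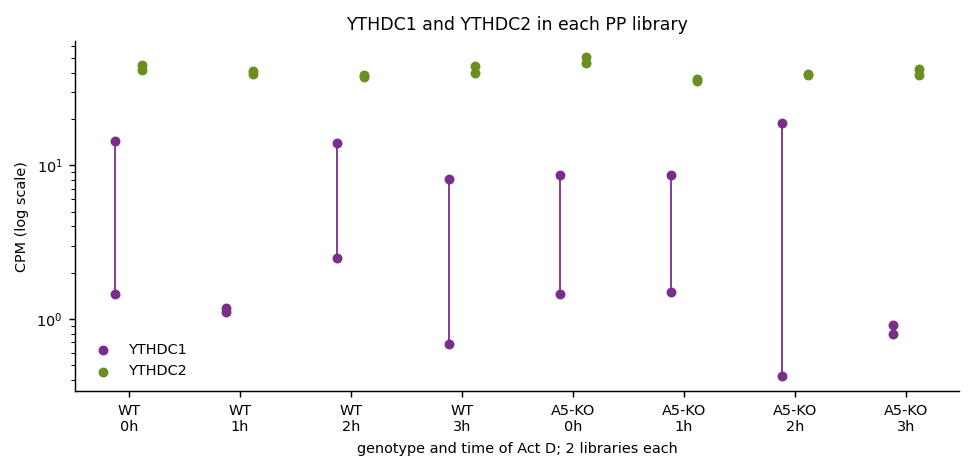
CPM of YTHDC1 and YTHDC2 on a log scale (y axis) in the 2 libraries of each genotype and time (x axis); a line joins the 2 libraries of a condition. The YTHDC1 pairs span up to 44.5-fold, while the YTHDC2 pairs nearly coincide.

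No genotype or time effect could be read from YTHDC1 in PPs at this spread. At 1 h in WT its mean was 14.3% of that at 0 h, a change of -1.53 with an SE of 1.13 (limma adjusted p = 0.37), which was -0.20 without the first WT library of 0 h and -2.85 without the second. Its change between genotypes at 0 h was -0.34 with an SE of 0.78, and without the second WT library of 0 h it was -1.67 and passed the test (limma adjusted p = 0.046), while without the first WT library it was 0.99. The annotation gives no exon shared with another gene, and none of its 6159 75-base words occurs in a transcript of another gene. In hILOs, quantified by another route, YTHDC1 read 35.9 and 27.3 TPM (WT) and 27.5 and 23.6 TPM (A5-KO), with no such gap. Per length it was the lowest reader in PPs at 0 h, at 1.13 ± 1.31 CPM per kb (SD, n = 2) in WT, and the fifth of 8 in hILOs, above YTHDC2. The cause of the PP values was not tested.

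At 0 h no reader was called between A5-KO and WT PPs. By limma 0 of 8 were called, against 2.7% of all genes, 0 of 8 had an unadjusted p below 0.05, and edgeR and DESeq2 called none. YTHDF2 changed by 0.09 (SE 0.11), YTHDF3 by 0.03 (SE 0.10) and YTHDF1 by less than 0.01 (SE 0.14). YTHDC2 had the smallest p, with 44.95 and 41.8 CPM in WT against 51.2 and 46.9 CPM in A5-KO and a change of 0.17 (SE 0.10; limma adjusted p = 0.39). IGF2BP2 changed by -0.07 (SE 0.07), IGF2BP3 by 0.05 (SE 0.10) and IGF2BP1 by -0.01 (SE 0.08).

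Per length of exon, YTHDF2 was the highest reader in PPs at 0 h. It was at 37.8 ± 4.15 CPM per kb (SD, n = 2) in WT, above IGF2BP2 at 29.3 ± 0.00253 CPM per kb with no overlap. IGF2BP1 at 24.9 ± 1.06 CPM per kb and YTHDF1 at 23.9 ± 4.47 CPM per kb overlapped, and YTHDF3 at 19.8 ± 1.104 CPM per kb came next without overlapping YTHDF1. IGF2BP3 was at 8.97 CPM per kb and YTHDC2 at 4.01 CPM per kb. The order of the 8 was the same in A5-KO PPs, where YTHDF1 and YTHDF3 also overlapped. The length used is that of all annotated exons of a gene, and it exceeds the canonical transcript unevenly. It is 8535 against 4274 bases for IGF2BP3, 6163 against 5095 for YTHDF3 and 3206 against 3198 for YTHDF1. Levels by canonical length were not computed, so the order holds for the length used.

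**Figure D5:**
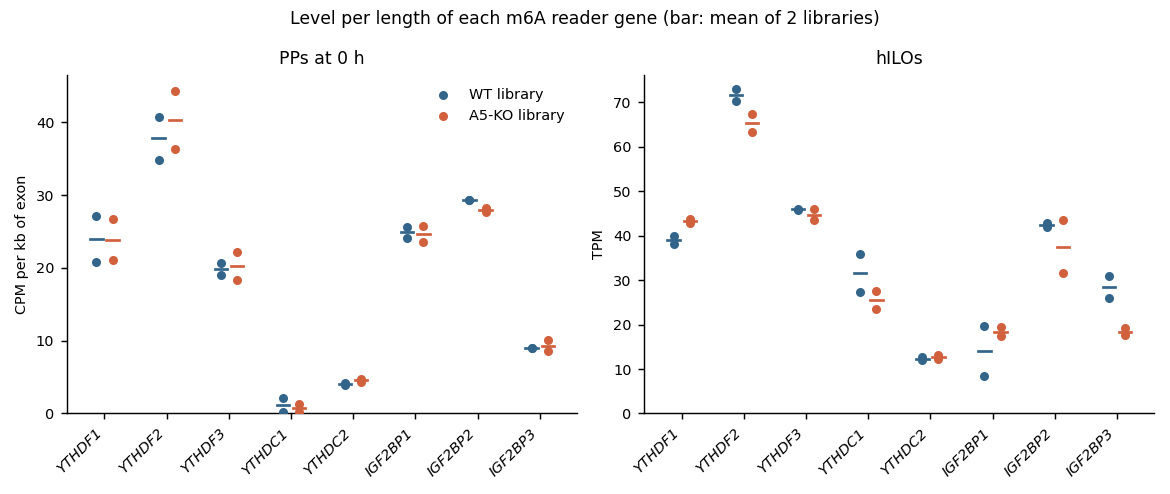
Level per length of the 8 reader genes (x axis) in PPs at 0 h as CPM per kb of exon (left y axis) and in hILOs as TPM (right y axis); points are libraries and bars means of 2. YTHDF2 is highest in both stages, and IGF2BP3 is the gene whose hILO libraries separate most between genotypes.

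In hILOs, YTHDF2 was again highest, with 73.0 and 70.3 TPM for the WT and 63.4 and 67.3 TPM for the A5-KO libraries. YTHDF3 followed in WT at 46.0 ± 0.162 TPM (SD, n = 2), IGF2BP2 at 42.5 ± 0.586 TPM, YTHDF1 at 39.1 ± 1.23 TPM, YTHDC1 at 31.6 ± 6.08 TPM and IGF2BP3 at 28.5 ± 3.54 TPM, and of these neighbours only the last pair overlapped. IGF2BP1 was at 19.7 and 8.49 TPM in WT, a 2.32-fold gap between replicates that no other reader showed in hILOs, and it overlapped YTHDC2 at 11.9 and 12.8 TPM. The PP and hILO levels come from different units and were not tested against each other.

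IGF2BP3 was the one reader called between the genotypes in hILOs, 1 of 8 against 6.79% of all genes. Its WT libraries read 25.98 and 30.98 TPM, its A5-KO libraries 17.7 and 19.1 TPM. The A5-KO libraries both lay below WT, with a change of -0.60 (SE 0.11; limma adjusted p = 0.046), or -0.54 relative to the median gene. This is 1.51-fold on the log2(TPM + 1) scale, at the edge of both thresholds. The call was lost when any 1 of the 4 libraries was left out, with changes from -0.72 to -0.47 and adjusted p of 0.085 to 0.15. MALSU1, on the opposite strand, shares 1521 of the 8535 exon bases of IGF2BP3, and the labels name a NEBNext Ultra RNA kit for these libraries with no word on strand. The WT libraries held 26.3 and 24.4 TPM of MALSU1, the A5-KO libraries 25.7 and 22.6 TPM.

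No other reader was called in hILOs. The WT libraries held 38.2 and 39.96 TPM of YTHDF1, the A5-KO libraries 42.9 and 43.8 TPM, a change of 0.15 (SE 0.06; limma adjusted p = 0.19), and YTHDF2 changed by -0.13 (SE 0.06; limma adjusted p = 0.21). Both pairs of groups were separated without passing the test. YTHDF3 changed by -0.04, YTHDC2 by 0.04, IGF2BP2 by -0.19 and YTHDC1 by -0.29, with adjusted p between 0.31 and 0.80. IGF2BP1 changed by 0.47 (SE 0.40; limma adjusted p = 0.48), which turned to -0.10 without the second WT library.

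Fetal and proliferation genes were listed beside the IGF2BP genes. In A5-KO against WT hILOs, of 6 fetal genes tested (7 listed), 3 were called lower, IGF2 (-0.78), HMGA2 (-0.69) and HMGA1 (-0.60). Of 8 proliferation genes, 6 were called lower, led by CDK1 (-1.09), TOP2A (-0.99) and TYMS (-0.92). Over all genes tested in hILOs, 4.09% were called lower. The medians of the lists were -0.45 and -0.82, against -0.06 over all genes. The mRNA of IGF2, after which the family is named, read 2331 and 2339 TPM for the WT and 1349 and 1375 TPM for the A5-KO libraries. In PPs at 0 h none of the 8 proliferation genes was called, and of the 6 fetal genes tested AFP (1.24) and LIN28A (1.01) were called higher. Over all genes tested at 0 h, 2.7% were called either way. The summed hepatocyte markers were between 19749 and 20103 TPM in WT hILOs and between 32138 and 32424 TPM in A5-KO. Of these 8 genes, 2 were called higher (TTR, 1.31, and ALB, 1.01) and 2 lower (FGB, -0.89, and AHSG), against 6.79% of all genes called either way. Their median was 0.16, and most of the sum's rise was TTR, at 7539 and 18711 TPM on average. The mesenchymal markers summed to between 260 and 263 TPM and between 145 and 151 TPM, which was mostly VIM (-1.07). Of the 4 tested among 6, COL1A2 (1.85) and LUM (1.497) were called higher from low levels, against the same share of all genes, and the median was 1.28. The part of cell composition in the IGF2BP3 value was not tested.

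The other genes of the m6A pathway were counted in the same comparisons. Of 9 writer genes, 5 were called lower at 1 h in WT, 6 at 1 h in A5-KO, 4 at 3 h in WT and 8 at 3 h in A5-KO, against 15.3%, 16.7%, 10.1% and 30.9% of all genes, and none in hILOs or at 0 h. The writer adaptor RBM15 fell most, by -2.25 and -2.36 at 1 h and by -1.65 and -2.79 at 3 h, followed by the E3 ligase CBLL1 at -1.71, -1.81, -1.19 and -2.40. WTAP, which holds the writer complex together, went from 87.6 and 72.0 CPM at 0 h to 21.4 and 19.4 CPM at 3 h in A5-KO, a change of -1.91 (limma adjusted p = 6.4e-08). VIRMA was the one writer called for its slope (-0.33 per h, limma adjusted p = 0.041), a call lost with the replicate block, with no filter, under either scaling and without any 1 of the 10 libraries above. Of the 2 erasers, FTO was called in no comparison, while ALKBH5 fell from 0 to 3 h by -1.96 in WT and by -1.12 in A5-KO.

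Of the 11 CCR4-NOT genes, which encode the deadenylase that YTHDF2 recruits, 3 were called lower at 1 h in each genotype, 2 at 3 h in WT and 7 at 3 h in A5-KO, against the same shares of all genes as for the writers. CNOT2, a scaffold subunit, changed by -0.92 and -0.99 at 1 h and by -0.78 and -2.38 at 3 h, and with the catalytic CNOT6L it was called for its slope (-0.54 and -0.50 per h, limma adjusted p = 0.045 and 0.037), both calls being lost in the settings that lost VIRMA. The ubiquitin ligase CNOT4 changed by -1.54, -1.46, -1.25 and -2.21. Of 8 further m6A binders, none was called in 6 comparisons, and at 3 h in A5-KO RBMX (-0.77) and FXR2 (-0.67) fell, where 30.9% of all genes did. Of 5 partners of the YTHDC proteins, SRSF3, a splicing factor bound by YTHDC1, was the one called, at -0.91 and -0.88 at 1 h and -1.27 at 3 h in A5-KO. The medians at 3 h in A5-KO were -0.74 for the readers, -1.63 for the writers, -0.70 for CCR4-NOT, -0.48 for the further binders and -0.50 for the YTHDC partners, against -0.22 over all genes.

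Across the 16 PP libraries, YTHDF1, YTHDF2 and YTHDF3 followed each other closely. Pearson's r of log2(CPM + 1) was 0.98 for YTHDF1 and YTHDF2, 0.95 for YTHDF2 and YTHDF3 and 0.92 for YTHDF1 and YTHDF3, and 0.82 for IGF2BP1 and IGF2BP2. These points share genotype, time and library, so that r describes the common course. Among 8920 genes that averaged 10 CPM or more, the most like YTHDF2 were KLF5 and THUMPD1 (both 0.995). The most like YTHDF1 were GEMIN4 and BUD13 (both 0.990), and the most like YTHDF3 were ZNF24 (0.995) and CDC73 (0.991). The nearest genes of IGF2BP1 were TRIO (0.97) and RERE (0.96), of IGF2BP2 SYNE2 (0.96) and CDK5RAP2 (0.92), of IGF2BP3 NOTCH2 (0.94) and BLTP2 (0.93), and of YTHDC2 SACM1L (0.94) and MAP4K5 (0.93). For YTHDC1 the highest values were 0.70 for PEX7 and 0.64 for POLR3K.

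The motifs shown above were also counted in the 3′ UTRs of the other readers. YTHDF2, with the largest fall at 3 h in A5-KO, has 0 ATTTA, YTHDF1 has 5 and YTHDF3 14, while IGF2BP1, which kept most of its share, has 11 ATTTA and 7 GGACT in 6701 bases and IGF2BP3 has 7 ATTTA in 2153 bases. Per kb of 3′ UTR, ATTTA stood at 4.55 in YTHDF3, 3.91 in YTHDF1, 3.25 in IGF2BP3 and 2.76 in YTHDC2. It stood at 2.69 in YTHDC1, 1.64 in IGF2BP1, 0.83 in IGF2BP2 and 0 in YTHDF2. The 3′ UTR of YTHDC1 has 3 GGACT, those of YTHDC2, IGF2BP2 and IGF2BP3 have 1 each, and that of YTHDF3 has 0. The part of the motifs in the changes was not tested. Over all genes tested, the median change at 3 h in A5-KO was 0.02 for the 3190 genes with 0 ATTTA and -0.48 for the 1687 with 11 or more, whose 3′ UTRs had median lengths of 389 and 4843 bases, so that motif number and length cannot be told apart. YTHDF2 shares 7.19% of its 75-base words with the pseudogene YTHDF2P1, which was at up to 0.117 CPM in PPs, and its exons overlap an opposite-strand lncRNA over 920 of 3729 bases.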

How the data were processed

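RNA of 16 PP and 4 hILO libraries was read as deposited. For hILOs the authors deposited TPM per gene, from reads aligned to GRCh38 with HISAT2 2.1.0 and assembled with StringTie. For PPs the authors deposited CPM per gene; the counter and annotation release are not given in the sources used here. CPM values were whole multiples of 1 read (tolerance 0.01) for at least 99.99% of non-zero values, which gave the reads used for edgeR and DESeq2; depth behind TPM is unknown. Intervals and spread rest on 2 libraries a group.

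Genes with a mean of at least 1 were fitted with limma 3.58.1 under R 4.3.3, with a mean-variance trend, on log2(value + 1), or log2(CPM + 0.1) for slopes with a genotype by time term, with Benjamini-Hochberg adjustment over all genes tested. The Act D contrasts came from 1 fit of all PP libraries. On the recovered reads, edgeR (4.0.16) called 228 genes higher and 205 lower at 0 h and 8 and 246 for slopes, and DESeq2 (1.42.0) called 243 and 221 and 143 and 727. A half-life is the inverse of the slope, through the origin, of log2 ratios of CPM + 0.1 to the 0 h library of the same replicate number. Loci, exons and 3′ UTRs come from GENCODE v44.

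The members and gene lists were chosen with earlier results of these data known. Named genes are the 8 readers, ALKBH5, at most 3 called genes with the largest change per list and comparison, and the 2 genes of highest r for each reader. MALSU1 and YTHDF2P1 were named for shared exons or sequence. FTO, AHSG, CHGA, INS, NEUROD1 and SERPINA1 were named after their values were seen. Fits were tested on simulated data. Alternatives were the pseudocount, the filter, 2 scalings, the replicate block, other tools, fewer times and each library left out.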

Additional observations from a re-analysis of the deposited data

Results flagged for a closer look

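In PPs, the A5-KO libraries of YTHDF1 and YTHDF2 both lay above the WT libraries at 1 h and both below them at 2 and at 3 h. For YTHDF1 the log2 difference between A5-KO and WT moved by -0.88 from 1 to 2 h and by -1.63 from 1 to 3 h, and for YTHDF2 by -0.78 and -2.06. YTHDC2 lay above WT in A5-KO at 0 and 2 h and below it at 1 h, with moves of -0.33 from 0 to 1 h and 0.19 from 1 to 2 h. These differences between times were not tested.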

How the results depend on the processing

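The number of readers called moved in few settings. In hILOs the 1 call became 0 with no filter, median-of-ratios scaling, quantile normalization, the replicate block or any library left out (0 in each). For slopes the 0 became 1 with edgeR or without 2 h, 2 with DESeq2 and 3 with 0 and 3 h only, and ranged from 0 to 2 over libraries left out. Over libraries left out it ranged from 0 to 1 in PPs at 0 h and from 1 to 3 at 3 h in WT, where no filter gave 1. All other counts of readers stayed within 1.5 times. Of 1112 estimates of single readers under alternatives, 71 had the opposite sign, none with an adjusted p below 0.05, and 7 of these were estimates of YTHDC2 or IGF2BP1 at 3 h in A5-KO that had passed it. Their reversed log2 changes were 0.021 and 0.012 under median-of-ratios scaling, 0.02 and 0.011 with edgeR, 0.022 and 0.012 with DESeq2, and 0.11 for YTHDC2 under quantile normalization. The log2 change of YTHDF3 turned to 0.023 in hILOs and -0.0082 in PPs at 0 h under median-of-ratios scaling, and to -0.0053 with edgeR and -0.0045 with DESeq2 at 0 h. The slopes from 0 and 1 h were 0.23 for YTHDF1 and 0.14 for YTHDF2. With a library left out, the hILO changes ranged from -0.0017 to 0.089 for YTHDC2, -0.097 to 1.03 for IGF2BP1 and -0.42 to 0.032 for IGF2BP2. At 0 h they ranged from -0.19 to 0.19 for YTHDF1, -0.05 to 0.23 for YTHDF2, -0.11 to 0.16 for YTHDF3, -1.67 to 0.99 for YTHDC1, -0.077 to 0.05 for IGF2BP1 and -0.067 to 0.16 for IGF2BP3. Apart from fewer libraries or times, the cause of these moves was not tested.

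Replicate numbers are shared by the genotypes. Same-numbered libraries of the genotypes deviated with an r of 0.01 in hILOs and of 0.19, -0.01, -0.07 and -0.01 in PPs at 0, 1, 2 and 3 h, and those of different times in a genotype with an r from -0.26 to 0.17. The study has the wells of a replicate come from a common batch of cells, which the labels do not tie to these numbers, so that the fit without the block was kept and the block is an alternative. With the replicate block, calls over all genes went from 467 higher and 707 lower to 289 and 385 in hILOs, from 218 and 157 to 365 and 266 in PPs at 0 h, and from 9 and 355 to 0 and 0 for slopes, where 311 and 2601 had an unadjusted p below 0.05. For slopes, 355 genes lower became 165 with a pseudocount of 1, 91 with median-of-ratios scaling, 23 with quantile normalization, 727 with DESeq2, 708 without 2 h, 2739 with 0 and 3 h only and 0 with no filter. With 0 and 1 h only the split was 51 higher and 3 lower. With no filter the calls were 143 and 187 in hILOs, 87 and 77 in PPs at 0 h and 33 and 702 at 3 h in WT. At 3 h in A5-KO edgeR gave 1703 and 3231 and DESeq2 1706 and 3231, and at 1 h 616 and 1668 and 579 and 1733. The 3 alternatives for the half-lives (a pseudocount of 1, 0 and 3 h only, 0 and 1 h only) were chosen after seeing the data.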
